A study of Saccharomyces cerevisiae with 6 samples.

Results

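GCN4 and the genes for the synthesis of arginine, histidine, lysine, aromatic amino acids, asparagine, threonine, serine and glutamine were followed in total RNA of budding yeast at 3 temperatures. These 36 genes, chosen by gene identifier from among the 6461 genes of the count table, fall into GCN4 itself, 7 arginine genes (ARG/CPA), 4 histidine genes (HIS), 6 lysine genes (LYS), 8 aromatic genes (TRP/ARO), 2 asparagine genes (ASN), 5 homoserine and threonine genes (HOM/THR), 2 serine genes (SER) and 1 glutamine gene (GLN). 3′-Tag-seq libraries, in which each read comes from the end of an mRNA close to its poly(A) tail, were made from 2 biological replicates per temperature, 6 libraries in all. Cells were grown in YPD, a rich medium that supplies amino acids, to an OD near 1 at 25°C or at 30°C. For the 37°C group, a 25°C culture at that density received the same volume of warm fresh medium, held for 15 min in a water bath and kept at 37°C for 2 h in all. Fresh medium and temperature therefore came together at 37°C and cannot be told apart. All cells share 1 strain of the BY4741/2 background with the genotype Cbp80-PPX-PrA, SNAPf-YRA1, so that Cbp80 carries a protein A tag and Yra1 a SNAPf tag. The strain list of the study gives it deletions at HIS3, LEU2, LYS2, MET15 (MET17) and URA3, so that these cells cannot complete the synthesis of histidine and of lysine and depend on the medium for both. In the count table MET17 and URA3 were at 0 throughout, no library held more than 1 count of LYS2 or 2 counts of LEU2, and HIS3, deleted only in part, had 3 to 124.

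Gcn4 is a transcription factor of the basic leucine zipper family that activates genes of amino acid synthesis when amino acids run short, a response known as general amino acid control. Its own level is set mainly at translation, because uncharged tRNA activates the kinase Gcn2 and short reading frames ahead of the GCN4 coding region then let more ribosomes reach it. GCN4 mRNA is therefore only 1 part of Gcn4 activity. Some of the pathways also carry their own switch. Arginine together with the ArgR proteins (Arg80, Arg81, Arg82 and Mcm1) represses ARG1, ARG3, ARG5,6 and ARG8, and a peptide encoded ahead of CPA1 lowers CPA1 expression when arginine is plentiful, while ARG4 is not repressed in this way. Lysine genes are also activated by Lys14, whose co-inducer is made by Lys2, an enzyme these cells lack.

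A sequence that Gcn4 binds is TGACTCA, which reads TGAGTCA on the other strand. Variants of it were not searched for, so a gene without an exact match may still hold a Gcn4 site. In the 500 bases before the start codon (R64 genome of RefSeq, both strands searched) at least 1 exact match was found for 21 of the 36 genes, or 58.3%, against 4.01% of 6008 nuclear coding genes. The 36 genes were chosen as GCN4 and amino acid synthesis genes under Gcn4, so the higher share follows from that choice and is no separate result. All 7 ARG/CPA genes, all 4 HIS genes and both ASN genes had a match, as did 4 of 8 TRP/ARO genes, 3 of 5 HOM/THR genes and 1 of 6 LYS genes, whereas GCN4, both SER genes and GLN1 had none in this window. Each matched gene had 1 match, 123 to 484 bases before the start codon. The matches of 5 arginine genes, of both asparagine genes and of HIS4 are printed because the temperature values below turn on these genes. Each is read 5′ to 3′ on the strand of its gene, with 10 bases on either side, and the capitals mark the motif.
ARG1: gattttttagTGACTCAtgtcgcattt
ARG5,6: cttatccgaaTGACTCAgtctacatca
ARG8: gctcgctatgTGACTCActtaaagtac
CPA1: gaagggtgttTGACTCAtcatcgcatc
ARG4: agtagatgaaTGACTCActttttggat
ASN1: atgtaacattTGACTCAttctgtaaac
ASN2: ttcttagcatTGACTCAtggcaagatt
HIS4: ccatgcacagTGACTCAcgttttttta
In R64 these windows lie at chrXV:218856-218882 (ARG1, plus strand), chrV:295177-295203 (ARG5,6, plus), chrXV:58569-58595 (ARG8, plus), chrXV:882405-882431 (CPA1, plus), chrVIII:141565-141591 (ARG4, minus), chrXVI:822383-822409 (ASN1, plus), chrVII:739737-739763 (ASN2, plus) and chrIII:68516-68542 (HIS4, minus). The tested genes with a match had log2 fold changes between 37°C and 25°C with a median of 0.11 (19 genes, from −1.45 to 3.33), and those without one had a median of 0.09 (15 genes, from −0.84 to 0.75). The difference between these genes was not tested.

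Counts in annotated genes ran from 184456 to 1006632 per library, and the 36 genes together held 0.782% to 0.996% of them. The lowest total belongs to the first 25°C replicate, in which 14 of the 36 genes had fewer than 10 counts and 4 had none (median 11.5 counts), while the medians of the other libraries were 126 to 173. Levels are given as CPM, counts scaled to a library of 1e+06 with the TMM factors, and 3 counts correspond to 17.6 CPM in the first 25°C library and to 2.81 to 4.25 CPM in the other 5. A count of 0 in a single library allows a level of up to these values, for counting error only. The share of ribosomal protein genes in the counts was 9.63% and 17.2% (25°C, replicates 1 and 2), 22.2% and 13.4% (30°C), and 11.4% and 12.1% (37°C). The replicates correlated at r = 0.794, 0.900 and 0.972 over all tested genes (log2(CPM + 1)), in order of rising temperature. The part of these library differences in the results below was not tested. In total RNA of a culture, fewer cells that express a gene and less of its RNA per cell cannot be told apart.

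Of the 36 genes, 34 passed the filter on low counts and were tested. ARG3, for ornithine carbamoyltransferase, had 0, 0, 2, 0, 1 and 6 counts, and HOM3, for aspartate kinase, 2, 4, 3, 2, 2 and 2 (in the order 25°C, 30°C and 37°C, replicates 1 and 2 of each), too few for a level to be given. The test was edgeR's quasi-likelihood test in 1 fit of all 6 libraries, and a gene was called at a Benjamini-Hochberg adjusted p below 0.05 over all 5181 tested genes and more than 1 away from 0 in log2 fold change (log2FC). With this test 0 of the 34 were called at 37°C against 25°C, against 30°C, or at 30°C against 25°C, where 0% of all tested genes were called in each. At an unadjusted p below 0.05, 3 of the 34 stood higher and 3 lower at 37°C against 25°C, where 7.53% of all tested genes stood higher and 6.02% lower. Against 30°C the numbers were again 3 higher and 3 lower, beside 4.65% and 2.41% of all genes, and between 30°C and 25°C 0 and 0, beside 1.1% and 0.309%. limma-voom called 0 of the 34 in each comparison. DESeq2 called 1, ASN1, at 37°C against 25°C, where it called 2.77% of its genes lower and 1.19% higher, and 0 in the other comparisons. In the comparison with 25°C its independent filtering gave an adjusted p to 1262 genes only, 18 of the 34 among them, and ARG1, ARG8 and ARG5,6 received none. Against 30°C it called 0.0752% of all its genes lower and 0.207% higher.

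The fold changes of the group lay on both sides of 0. Their median log2FC at 37°C against 25°C was 0.10, with 19 above 0 and 15 below, beside a median of 0.09 and 44.6% below 0 over all tested genes. Against 30°C it was −0.31, with 25 of 34 below 0, where 51.3% of all genes were below 0 and their median was −0.01. Between 30°C and 25°C it was 0.27, with 25 above 0 and 9 below, beside a median of 0.08 and 43.9% below 0. With total counts in place of TMM factors, which moved the median of all genes to 0.33 against 25°C and 0.23 against 30°C, 11 and 20 of the 34 were below 0. The median against 25°C was −0.28 when the first 25°C replicate was left out, 0.54 when the second was, and that against 30°C was −0.08 without the first 30°C replicate. Within the group, the arginine genes ARG1, ARG8 and CPA1 had the highest log2FC between 37°C and 25°C, and the asparagine genes the lowest.

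**Figure D1:**
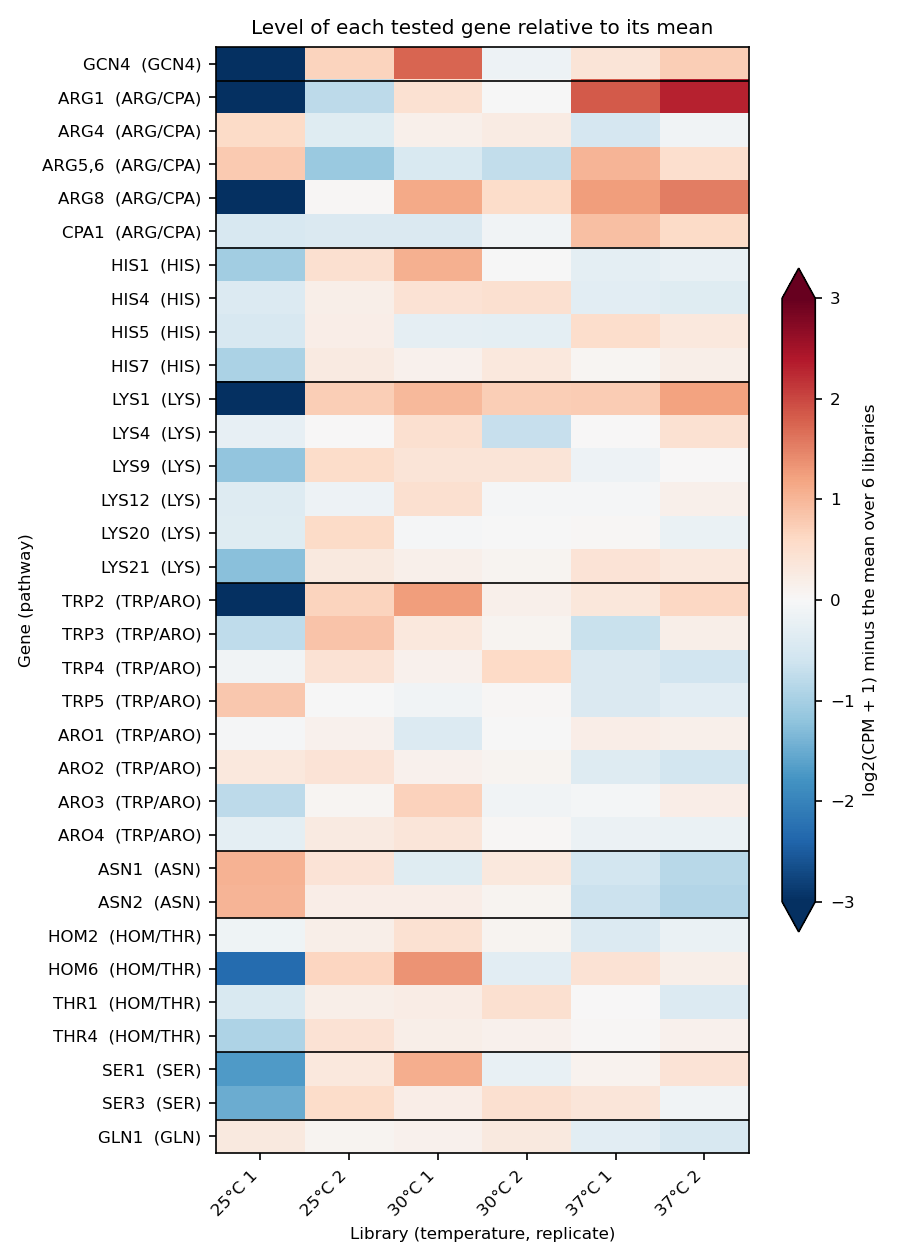
Level of 33 of the 34 tested genes (rows, ordered by pathway) in the 6 libraries (columns), as log2(CPM + 1) minus the mean of the gene over the libraries, with colours cut at −3 and 3. ARG1 is highest in both 37°C libraries, ASN1 and ASN2 are lowest there, and the first 25°C library stands apart in GCN4, ARG1, ARG8, LYS1 and TRP2.

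GCN4 (YEL009C, chromosome V, 138918 to 139763, 1 exon, minus strand) had 35.3 and 597 CPM at 25°C, 1253 and 337 CPM at 30°C, and 486 and 620 CPM at 37°C, from 6, 504, 1111, 238, 456 and 661 counts. The 37°C replicates lay close together, within the range at 30°C and around the higher of the 25°C values, and the replicates at 25°C and at 30°C differed more from each other than any temperature mean did from another. At 37°C the log2FC was 0.75 relative to 25°C (SE 1.04, 95% interval −1.70 to 3.20, edgeR adjusted p = 0.775). Relative to 30°C it was −0.52 (SE 1.03, interval −2.96 to 1.91, edgeR adjusted p = 0.983). The former became −0.14 when the first 25°C replicate was left out and 3.93 when the second was, and the latter 0.68 when the first 30°C replicate was left out. A difference of more than 2-fold either way was within both intervals, so neither a change nor its absence could be shown for GCN4 mRNA.

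The arginine genes held the highest fold changes of the group. Their summed level was 306 and 279 CPM at 25°C, 372 and 347 CPM at 30°C, and 629 and 566 CPM at 37°C, so that both 37°C libraries lay above all 4 cooler ones. Means were 293 ± 18.6, 360 ± 17.9 and 598 ± 44.1 CPM (SD, n = 2), a ratio of 2.04 to 25°C and of 1.66 to 30°C, and CPA1 alone gave 149, 172 and 346 CPM of these means. Single genes differed: 4 of the 6 tested, ARG1, ARG5,6, ARG8 and CPA1, had log2FC above 1 at 37°C against 25°C, where 10.2% of all tested genes did (0 members of the pathway were below −1, beside 5.89% of all genes), and ARG4 was among those between −1 and 1.

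ARG1 (YOL058W, chromosome XV, 219211 to 220473, 1 exon, plus strand), for argininosuccinate synthetase, had counts of 0 and 6 (25°C), 16 and 9 (30°C), and 46 and 72 (37°C). These are 0 and 7.10 CPM, 18.0 and 12.7 CPM, and 49.0 and 67.5 CPM, so that the groups did not overlap in any of the 3 comparisons. Against 25°C the log2FC of 3.33 was the highest of the 34 genes (SE 0.63, 95% interval 1.89 to 4.85, edgeR adjusted p = 0.147). Against 30°C it was 1.90 (SE 0.48, 95% interval 0.78 to 3.03, edgeR adjusted p = 0.424). Against 30°C it ran from 1.65 to 2.15 with any 1 library left out. The value against 25°C, 2.98 without the first 25°C replicate, rests on 6 counts in 1 cooler library, and without the second replicate the gene was called by edgeR against a group with 0 counts, in a fit that called 6.83% of all genes.

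CPA1 (YOR303W, chromosome XV, 882899 to 884134, 1 exon, plus strand) encodes the small subunit of the carbamoyl phosphate synthetase that feeds the arginine pathway. Its levels were 147 and 152 CPM at 25°C, 151 and 193 CPM at 30°C, and 384 and 308 CPM at 37°C. Both 37°C libraries stood above the other 4, and at 25°C the shallow and the deep replicate gave almost the same level. Compared with 25°C the log2FC was 1.21 (SE 0.31, 95% interval 0.47 to 1.94, edgeR adjusted p = 0.245, DESeq2 adjusted p = 0.104), and compared with 30°C 1.01 (SE 0.30, 95% interval 0.30 to 1.72, edgeR adjusted p = 0.538). With any 1 library left out it stayed between 1.05 and 1.37 against 25°C and between 0.81 and 1.19 against 30°C.

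ARG8 (YOL140W), for acetylornithine aminotransferase in the mitochondrion, had 0 and 22.5 CPM at 25°C, 49.6 and 32.6 CPM at 30°C, and 53.3 and 65.6 CPM at 37°C. The levels at 30°C and 37°C both lay above those at 25°C, and those at 37°C only slightly above those at 30°C. The log2FC was 1.82 against 25°C (SE 0.65, edgeR adjusted p = 0.332), 0.52 against 30°C (SE 0.54, edgeR adjusted p = 0.940), and 1.30 between 30°C and 25°C (SE 0.67), where 5.75% of all tested genes were above 1 and 1.2% below −1. As for ARG1, edgeR called it, with 6.83% of all genes, without the second 25°C replicate, where the 25°C group is the 0 of the shallow library alone. ARG5,6 (YER069W) encodes a precursor from which the acetylglutamate kinase and the reductase of the next step are cut. It had 47.0 and 11.8 CPM at 25°C, from 8 and 10 counts, 19.2 and 15.6 at 30°C, and 55.4 and 38.5 at 37°C. Its log2FC was 1.11 against 25°C (SE 0.64, edgeR adjusted p = 0.481), with overlap between the groups, and 1.41 against 30°C (SE 0.57, edgeR adjusted p = 0.688), without overlap. The value against 25°C was 1.94 with the second 25°C replicate alone and −0.04 with the first alone.

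ARG4 (YHR018C), for argininosuccinate lyase, which takes the product of Arg1 to arginine, had 70.5 and 36.7 CPM at 25°C, 53.0 and 56.6 CPM at 30°C, and 33.0 and 44.1 CPM at 37°C. Its log2FC was −0.32 relative to 25°C and −0.50 relative to 30°C (SE 0.43 and 0.39, edgeR adjusted p = 0.769 and 0.897). Both intervals included 0 (−1.32 to 0.69 and −1.42 to 0.41). The 37°C levels lay below those at 30°C without overlap. The higher 25°C level came from 12 counts in the first library, and that of the second lay between the 37°C levels. A direction against 25°C, and so a contrast with ARG1 there, could not be shown. ARG1 and ARG4 both carry a match to the Gcn4 motif, as printed above. Neither the difference between these genes nor a part of Gcn4 or of arginine in it was tested.

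**Figure D2:**
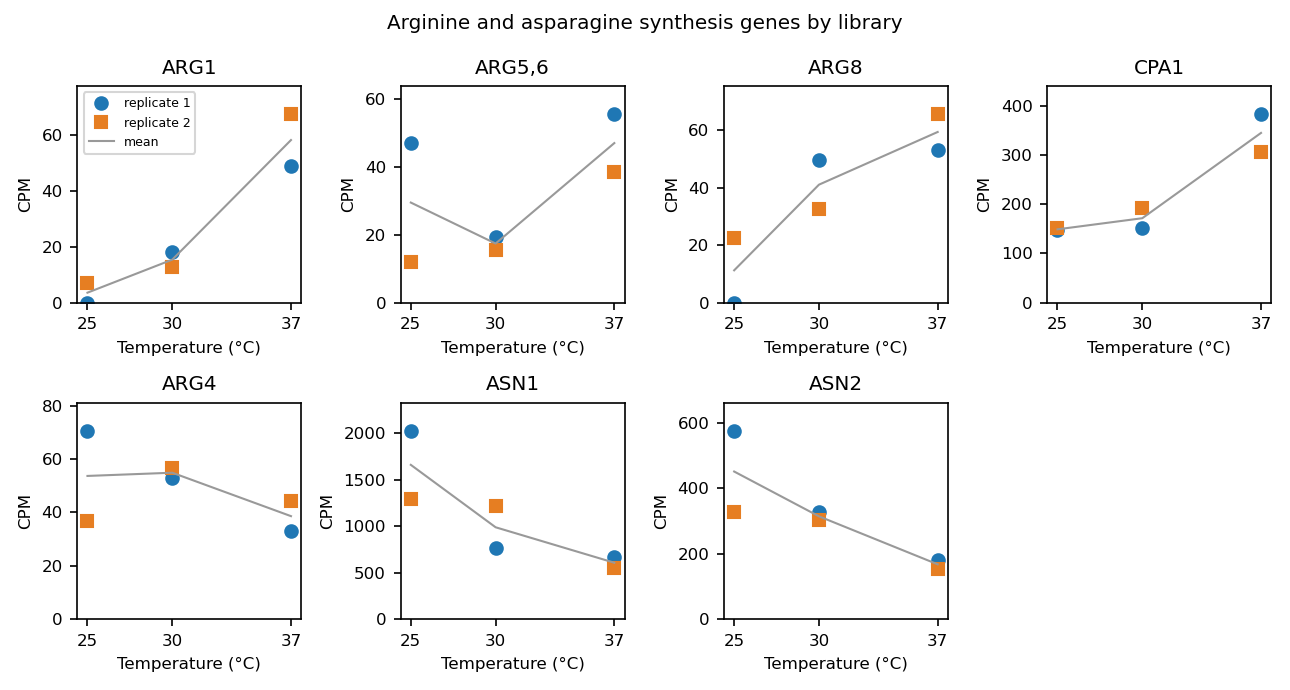
CPM (vertical axis, from 0) of 5 arginine and 2 asparagine synthesis genes by temperature (horizontal axis, °C), with replicate 1 as circles, replicate 2 as squares, and a line through the means of 2. ARG1 reaches 49.0 and 67.5 CPM and CPA1 384 and 308 CPM at 37°C, above all cooler libraries, whereas ASN1 and ASN2 are at their lowest there.

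The asparagine synthetases lay at the other end. Asn1 and Asn2 both make asparagine from aspartate with glutamine as the nitrogen donor. ASN1 (YPR145W, chromosome XVI, 822620 to 824338, 1 exon, plus strand) had 2028 and 1294 CPM at 25°C, 763 and 1215 CPM at 30°C, and 666 and 548 CPM at 37°C. ASN2 (YGR124W, chromosome VII, 739944 to 741662, 1 exon, plus strand) had 576 and 327, 327 and 302, and 181 and 154 CPM. For both genes each 37°C library was below each of the 4 cooler ones. Between 37°C and 25°C ASN1 had a log2FC of −1.45 (SE 0.43, 95% interval −2.47 to −0.43, edgeR adjusted p = 0.279). ASN2 had one of −1.41 (SE 0.37, 95% interval −2.28 to −0.54, edgeR adjusted p = 0.245). DESeq2 called ASN1 (log2FC −1.51, DESeq2 adjusted p = 0.0443) and not ASN2 (log2FC −1.47, DESeq2 adjusted p = 0.0536). Against 30°C, the log2FC was −0.70 for ASN1 (SE 0.43, edgeR adjusted p = 0.849) and −0.91 for ASN2 (SE 0.36, edgeR adjusted p = 0.688). The first 25°C library was the highest of the 6 for both genes, and without it the log2FC against 25°C was −1.12 for ASN1 and −0.996 for ASN2. With the second 25°C replicate left out instead, edgeR called both genes lower, at −1.78 and −1.82, in a fit that called 6.83% of all genes and in which the spread comes from the 30°C and 37°C libraries alone. The coding regions share 81.2% of their bases, with a longest identical run of 83 bases, or of 23 within the last 400 bases, so some reads could map to both and be lost from either count.

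GLN1 (YPR035W), for glutamine synthetase, had 412 and 360 CPM at 25°C, 371 and 413 CPM at 30°C, and 271 and 242 CPM at 37°C. The 37°C libraries were again below all others, with tight replicates at each temperature. Both intervals included 0, with log2FC of −0.58 from 25°C (SE 0.30, 95% interval −1.29 to 0.12, edgeR adjusted p = 0.432) against −0.61 from 30°C (SE 0.30, 95% interval −1.31 to 0.09, edgeR adjusted p = 0.753).

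The aromatic genes were lower at 37°C as a sum, and of the 8 genes 3 lay below all 4 cooler libraries and 1 above them, where 12.3% and 16.9% of all tested genes did. The pathway runs from the DAHP synthases Aro3 and Aro4 through Aro1 and Aro2 to chorismate, and from there through the Trp enzymes to tryptophan. Summed levels were 3116 and 3085 CPM at 25°C, 2961 and 2744 CPM at 30°C, and 2211 and 2254 CPM at 37°C. Their means were 3100.2 ± 22.0, 2853 ± 153 and 2233 ± 29.8 (SD, n = 2). TRP5 alone gave 1183, 837 and 667 CPM of these means. Its 25°C replicates, 1511 and 856 CPM, differed far more than the sums did, so the small SD at 25°C does not hold for single genes. The 3 genes below all cooler libraries were TRP5, ARO2 and TRP4. ARO2 (YGL148W), for chorismate synthase, had 717 and 767, 626 and 609, and 439 and 391 CPM. Its log2FC was −0.84 relative to 25°C (95% interval −1.59 to −0.09, SE 0.32, edgeR adjusted p = 0.344) and −0.57 relative to 30°C (SE 0.32, edgeR adjusted p = 0.821). TRP4 (YDR354W), for anthranilate phosphoribosyltransferase, had 94.1 and 137, 111 and 154, and 74.6 and 67.5 CPM, with log2FC of −0.75 (SE 0.34, edgeR adjusted p = 0.390) and −0.89 (SE 0.33, edgeR adjusted p = 0.657). TRP5, for tryptophan synthase, had 1511 and 856 CPM at 25°C, 792 and 882 CPM at 30°C, and 638 and 695 CPM at 37°C, and its log2FC was −0.82 against 25°C (SE 0.40) and −0.33 against 30°C (SE 0.40). None of these 3 genes holds an exact match to TGACTCA in its 500-base window. Of the other genes below all cooler libraries, ASN1, ASN2 and HOM2 hold one and GLN1 does not, and a relation between match and level was not tested.

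The other aromatic genes showed no such step. ARO1, for the enzyme of 5 activities ahead of Aro2, had 229 and 256, 176 and 231, and 268 and 262 CPM, highest at 37°C by a small margin (log2FC 0.12 and 0.38, SE 0.30 each). The paralogs ARO3 and ARO4, whose enzymes are inhibited by phenylalanine and by tyrosine, had log2FC of 0.24 and −0.22 against 25°C (SE 0.45 and 0.36) and of −0.29 and −0.42 against 30°C. Their coding regions share 66.6% of bases and no identical run above 17 bases. TRP2, for anthranilate synthase, had 17.6 and 236 CPM at 25°C, 353 and 164 CPM at 30°C, and 188 and 230 CPM at 37°C, a spread between replicates like that of GCN4. TRP3, for the partner of Trp2, had 1 to 17 counts per library.

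**Figure D3:**
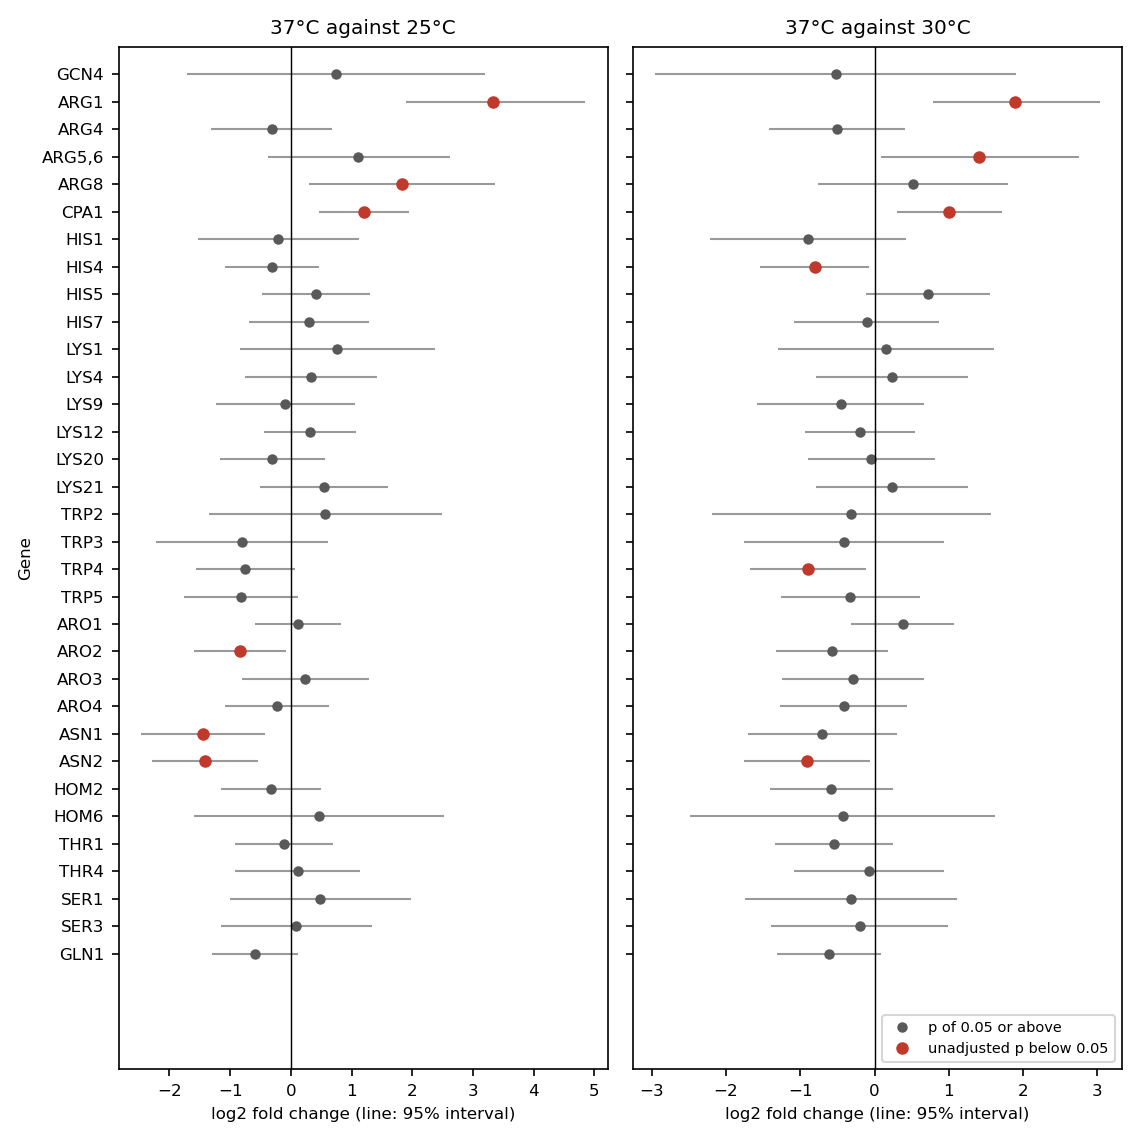
Log2 fold change of 33 of the 34 tested genes (rows) at 37°C against 25°C (left) and against 30°C (right), horizontal axis, with lines for the 95% interval and red points for an unadjusted p below 0.05. ARG1 is highest at 3.33 and 1.90, ASN1 and ASN2 are lowest against 25°C at −1.45 and −1.41, and GCN4, HOM6 and TRP2 have the widest intervals.

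Histidine genes differed among themselves. HIS4 (YCL030C), for a protein with 3 activities of the pathway, had 58.8 and 87.6 CPM at 25°C, 106 and 109 CPM at 30°C, and 62.9 and 60.0 CPM at 37°C. It stood highest at 30°C, above both other temperatures without overlap. The log2FC was −0.32 against 25°C (SE 0.33, edgeR adjusted p = 0.697) and −0.81 relative to 30°C (95% interval −1.54 to −0.07, SE 0.31, edgeR adjusted p = 0.671). HIS5, for histidinol-phosphate aminotransferase, had 23.5 and 37.9, 27.1 and 26.9, and 48.0 and 41.3 CPM, above all cooler libraries at 37°C (log2FC 0.41 and 0.72, SE 0.38 and 0.36). HIS1, for the first enzyme of the pathway, had 182 and 527, 792 and 372, and 305 and 323 CPM, and HIS7, for imidazole glycerol phosphate synthase, 170.5 and 393, 359 and 406, and 341 and 370. The log2FC of these last genes against 25°C were −0.21 and 0.30 (SE 0.56 and 0.42).

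The 6 lysine genes had log2FC from −0.46 to 0.23 relative to 30°C, with 3 on each side of 0. Against 25°C they ran from −0.31 for LYS20 to 0.76 for LYS1, the gene for saccharopine dehydrogenase, which had 0 and 35.5 CPM at 25°C, 41.7 and 35.4 CPM at 30°C, and 36.2 and 49.7 CPM at 37°C. LYS12, for homoisocitrate dehydrogenase, had 200 and 234, 363 and 256, and 254 and 290 CPM, with a log2FC of 0.50 at 30°C against 25°C (SE 0.32, edgeR adjusted p = 0.888). The homocitrate synthases Lys20 and Lys21 catalyse the first step. LYS20 had 153 and 294, 190 and 193, and 201 and 170 CPM, and LYS21 58.8 and 173, 159 and 152, and 189 and 176. LYS21 stood above all cooler libraries at 37°C (log2FC 0.55 and 0.23, SE 0.45 and 0.44), while LYS20 overlapped with both temperatures (log2FC −0.31 and −0.04, SE 0.37 and 0.36). The value of LYS21 against 25°C was 0.05 when the first 25°C replicate was left out and 1.59 when the second was. The coding regions of this pair share 91.6% of their bases, with a longest identical run of 278 bases, or of 108 within the last 400 bases. Their counts are therefore less certain than those of the other genes. LYS4, for homoaconitase, and LYS9, for the other saccharopine dehydrogenase of the pathway, had log2FC of 0.33 and −0.09 against 25°C (SE 0.46 and 0.48).

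Among the homoserine and threonine genes, HOM2, for aspartate semialdehyde dehydrogenase, had 606 and 752 CPM at 25°C, 920 and 704 CPM at 30°C, and 503 and 582 CPM at 37°C. Both 37°C libraries lay below all others (log2FC −0.33 and −0.58, SE 0.35 each, edgeR adjusted p = 0.713 and 0.849). HOM6, for homoserine dehydrogenase, had 94.1 and 729, 1196 and 374, and 634 and 531 CPM. The HOM6 replicates spanned both 37°C values at 25°C and at 30°C. For GCN4 this held at 30°C only, since its 620 CPM in the second 37°C library lay above both 25°C values. THR1 and THR4, for homoserine kinase and threonine synthase, had log2FC of −0.12 and 0.11 against 25°C and of −0.54 and −0.08 against 30°C (SE 0.34 to 0.43). SER1, for phosphoserine aminotransferase, had 35.3 and 147, 250 and 101, and 126 and 158 CPM (log2FC 0.48 and −0.31, SE 0.63 and 0.61, edgeR adjusted p = 0.764 and 0.983). With 1 library left out, the SER1 values ran from −0.08 to 1.97 against 25°C and from −0.82 to 0.47 against 30°C, so that neither direction held. SER3, for phosphoglycerate dehydrogenase, had 23.5 and 98.2, 77.8 and 93.5, and 86.3 and 62.8 CPM. The noncoding RNA SRG1 is annotated as overlapping SER3 on the same strand, so the reads of both cannot be told apart by strand there.

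**Figure D4:**
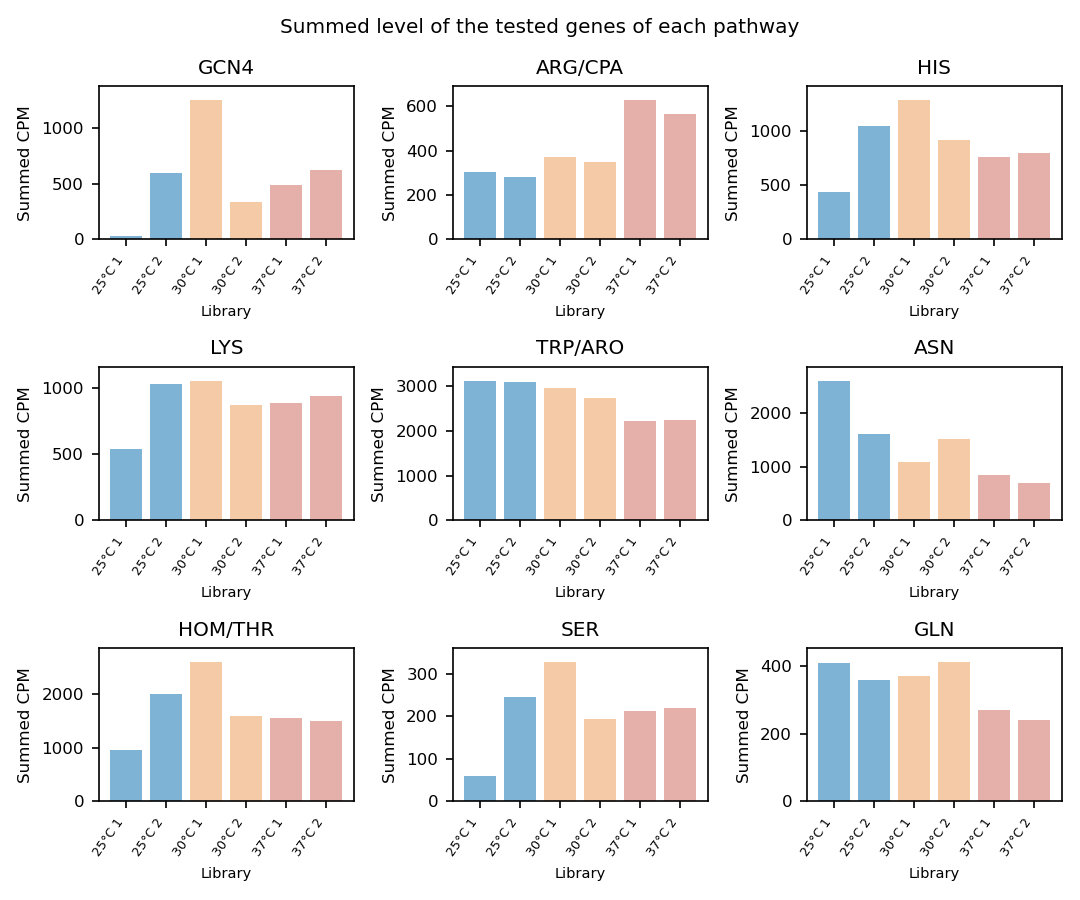
Summed CPM of the tested genes of each pathway (vertical axis, from 0) in each of the 6 libraries (horizontal axis, bars). ARG/CPA stands at 629 and 566 CPM at 37°C against 279 to 372 in the cooler libraries, and ASN and TRP/ARO are lowest at 37°C. GCN4, HIS, LYS, HOM/THR and SER are lowest in the first 25°C and highest in the first 30°C library.

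Counted by library rather than by mean, both 37°C libraries stood above all 4 cooler ones for 6 of the 34 genes, ARG1, ARG8, CPA1, HIS5, LYS21 and ARO1, and below all of them for 7, TRP4, TRP5, ARO2, ASN1, ASN2, HOM2 and GLN1. Over all tested genes the shares were 16.9% above and 12.3% below. Against 30°C alone, 14 of the 34 did not overlap and were lower at 37°C, where 20.2% of all tested genes were, and 7 were higher, where 24.3% were. Against 25°C alone, 7 were lower, where 23.2% of all genes were, and 8 higher, where 29.4% were. Between 30°C and 25°C, 5 were higher at 30°C, ARG1, ARG8, HIS4, LYS12 and THR1, beside 13.1% of all genes, and 2 were lower, ARO2 and ASN1, beside 10.4%.

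Many of these mRNAs differed more between replicates than between temperatures. At 25°C, 28 of the 34 were lower in the first replicate than in the second, by a median log2 ratio of −0.64, where 54.8% of all tested genes were lower (median −0.12). The largest ratios with a count above 0 in both were −4.04 for GCN4, −3.67 for TRP2, −2.94 for HOM6, −2.03 for SER1 and −2.02 for SER3. ARG5,6, ARG4, TRP5, ASN2, ASN1 and GLN1 went the other way, with 1.90, 0.92, 0.82, 0.82, 0.65 and 0.19. At 30°C the order turned: GCN4, HOM6, SER1, LYS4, TRP2 and HIS1 were among those higher in the first replicate, with log2 ratios of 1.89, 1.68, 1.31, 1.18, 1.10 and 1.09. The ratios had opposite signs at 25°C and 30°C for 24 of the 34 genes, and for 70.9% of all tested genes, with a Spearman correlation across genes of −0.45 for the 34 and of −0.55 for all. At 37°C the replicates differed least of the 3 temperatures, with a standard deviation of the log2 ratio of 0.32 over the 34 genes against 0.63 at 30°C and 1.62 at 25°C. The 25°C ratio was also higher in genes with a longer annotated span, with a Spearman correlation of 0.34 across the 34 and of 0.21 across all. These correlations are across genes that share libraries and depth, and describe these libraries only. The ribosomal protein share given above was likewise lower in the first replicate at 25°C and higher in the first at 30°C, and its part in these ratios was not tested.

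**Figure D5:**
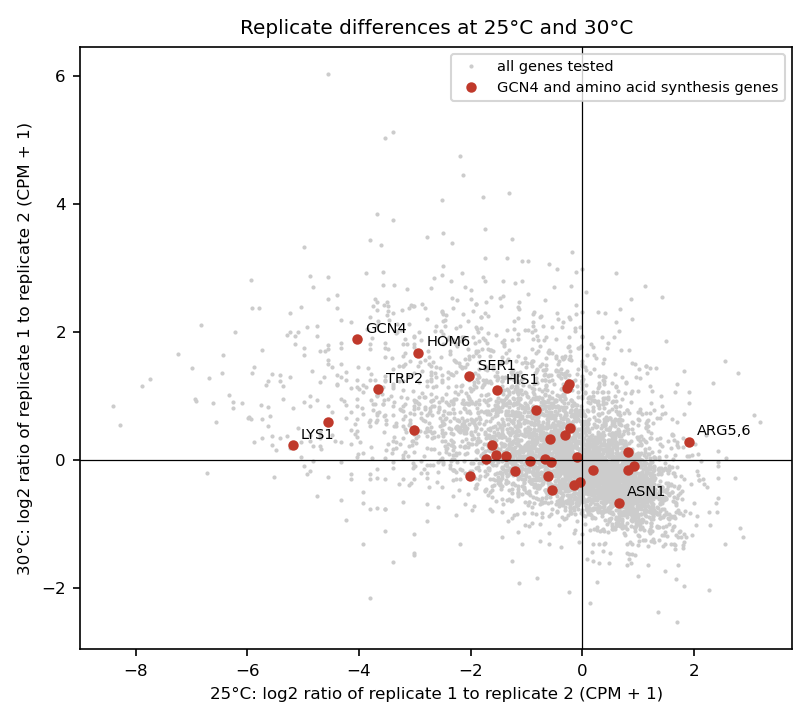
Log2 ratio of replicate 1 to replicate 2, on CPM + 1, at 25°C (horizontal axis) and at 30°C (vertical axis) for the 34 genes (red) and all 5181 tested genes (grey). GCN4, HOM6, TRP2, SER1 and HIS1 sit in the upper left, low in the first 25°C and high in the first 30°C library, and ASN1 in the lower right.

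The 17 further enzymes of the same pathways also lay on both sides of 0. At 37°C against 25°C their median log2FC was 0.60, with 12 above 0 and 5 below, where 44.6% of all tested genes were below. Against 30°C it was −0.15, with 7 above and 10 below, where 51.3% of all tested genes were below. Of these 17, 0 were called by edgeR in any comparison. At 37°C against 25°C 1 stood higher and 2 lower at an unadjusted p below 0.05, beside 7.53% and 6.02% of all genes. The lower ones feed nitrogen into glutamate: GDH1, for the NADPH-dependent glutamate dehydrogenase, had 282 and 619 CPM at 25°C, 628 and 302 CPM at 30°C, and 136 and 162 CPM at 37°C, and GLT1, for glutamate synthase, 946 and 808, 461 and 639, and 424 and 402. Both genes were below all 4 cooler libraries at 37°C. The log2FC of GDH1 was −1.61 against 25°C and −1.64 against 30°C (SE 0.51 each, edgeR adjusted p = 0.294 and 0.571), and that of GLT1 −1.08 and −0.41 (SE 0.35 and 0.34, edgeR adjusted p = 0.296 and 0.927). GDH3, the paralog of GDH1, had counts of 1, 4, 13, 7, 20 and 13 in order of rising temperature (log2FC 1.71 against 25°C, SE 0.65, edgeR adjusted p = 0.340).

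Of 14 regulators, 12 were tested and 0 called (ARG80 and GLN3 had at most 3 and 6 counts). PCL5, for a cyclin that with Pho85 marks Gcn4 for breakdown and is itself a Gcn4 target, had 5.88 and 17.8 CPM at 25°C, 48.5 and 12.7 CPM at 30°C, and 46.9 and 41.3 CPM at 37°C (log2FC 1.57 against 25°C, SE 0.71, edgeR adjusted p = 0.385, and 0.49 against 30°C, SE 0.59). Its lowest level rests on 1 count, and with 1 library left out its values ran from 1.27 to 2.83 against 25°C and from −0.14 to 1.75 against 30°C. GCD6, for a subunit of the exchange factor eIF2B, and GCN20, for an activator of Gcn2, had log2FC of −0.74 and −0.40 against 25°C (SE 0.30 and 0.32). GCN2 and GCN1, for the kinase and its activator, had −0.28 and 0.03 (SE 0.33 and 0.34), and both were named after their values were seen. Of 12 amino acid permease genes 0 were called, and 10 had a log2FC below 0 against 30°C, as 51.3% of all tested genes and 25 of the 34 did. Against 25°C 8 permease genes were below 0 and 4 above, with a median of −0.23, where 44.6% of all tested genes were below. AGP1, TAT1 and BAP2, for permeases of broad, tyrosine and branched-chain specificity, had log2FC of −1.05, −1.09 and −0.92 against 25°C (SE 0.29, 0.45 and 0.38, edgeR adjusted p = 0.257, 0.355 and 0.356).

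The closest groups for comparison are the genes of branched-chain amino acid synthesis and of purine synthesis, of which many are also Gcn4 targets. Among the 10 branched-chain genes the median log2FC was −0.80 relative to 25°C and −1.03 relative to 30°C, with 5 of 10 below −1 in each, where the 34 genes had 2 and 0 and 5.89% and 3.2% of all genes were. LEU1, BAT1 and ILV3 were lowest, with −2.27, −1.72 and −2.11 against 30°C. The motif TGACTCA stood in the 500-base window of 7 of these 10 genes. The 10 purine genes had medians of 0.63 and −0.03, with ADE17 and ADE2 at 1.10 and 0.98 and ADE13 at −0.85 against 25°C (SE 0.37, 0.35 and 0.40), and the motif in 1 of 10 windows. None of these 20 genes was called by edgeR in any comparison. DESeq2 called LEU1 lower against 25°C (DESeq2 adjusted p = 0.000436) and LEU1 and BAT1 lower against 30°C (DESeq2 adjusted p = 0.000184 and 0.0282), where it called 4 genes lower in all. The difference between the groups was not tested.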

How the data were processed

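Total RNA of 2 biological replicates at each of 3 temperatures was sequenced by 3′-Tag-seq (QuantSeq). The authors mapped reads to R64 and deposited raw counts per annotated gene; DESeq2 1.38.2, HTSeq 2.0.2, STAR 2.7.10a and UMI-tools 1.0.1 appear in the submitters' processing notes. Duplicate removal, counting mode and strand setting for total RNA are not given in the sources used here. A deposited table of normalized values was not used. The 5 summary entries (reads in no gene, 41.1% to 47.9% of a library, and reads mapping to more than 1 place, 7.81% to 14.1%, among them) were left out of library sizes and tests.

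Genes kept by filterByExpr (5181) were tested by the quasi-likelihood method of edgeR 4.0.16 with TMM factors, which ran from 0.883 to 1.12. The model held temperature alone and was fitted to the 6 libraries together (biological coefficient of variation 0.323, common value), and p-values were adjusted over all of them. The log2FC is edgeR's, drawn slightly toward 0 by its prior count. The SE is the unshrunk coefficient divided by the square root of F, and the 95% interval uses a t quantile around that coefficient. SD values are over 2 libraries. With 2 against 2 libraries an exact permutation test cannot go below p = 0.333, and none was run. Alternatives were DESeq2 1.42.0, limma 3.58.1 (voom), RLE factors, total counts only, no filter, at least 10 counts in every library, 2 temperatures only, a block for replicate number, and each library left out. A crossed block was added after the values were seen. The test scripts were first run on simulated counts.

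Values of 1 tested arginine gene are not reported here by themselves and enter only counts, medians and sums.

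The genes and lists were chosen with earlier results of these data known. Named genes are GCN4, the 3 paralog pairs, every member at an unadjusted p below 0.05, the member with the smallest p of each pathway, and up to 3 genes of each further list by p; other members are given as the rest of their pathway. Sequences and coordinates are from the R64 assembly of RefSeq, where 6458 of 6461 identifiers matched. Figures and joins were made in Python 3.11.15 (pandas 2.3.3, matplotlib 3.10.9, numpy 2.4.6) and tests in R 4.3.3.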

Additional observations from a re-analysis of the deposited data

How the results depend on the processing

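The count of the 34 genes called by edgeR at 37°C against 25°C was 0, against 1 with DESeq2 (ASN1, lower) and 0 with limma-voom, with other normalization factors, with other filters and with 2 temperatures only. With 1 library left out it ran from 0 to 4, the 4 being ARG1, ARG8, ASN1 and ASN2 without the second 25°C replicate, where only the shallow library was left at 25°C, assumed to vary like the other groups, and 6.83% of all genes were called. Against 30°C and between 30°C and 25°C it was 0 under every alternative run. The median log2FC of the genes ran with 1 library left out from −0.28 to 0.54 against 25°C, from −0.44 to −0.08 against 30°C and from 0.04 to 0.72 between 30°C and 25°C. With total counts only, which moved the median of all genes from 0.09 to 0.33 against 25°C and from −0.01 to 0.23 against 30°C, the medians of the 34 were 0.34 and −0.04.

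The labels do not say whether replicate numbers pair the samples across temperatures, and this was not tested. The differences between replicates 1 and 2 over all genes correlated at −0.51 between 25°C and 30°C, 0.26 between 25°C and 37°C, and −0.39 between 30°C and 37°C. With a replicate block 0 of the 34 were called in each comparison, and with the 30°C numbers crossed, chosen after the values were seen, again 0. The filter of at least 10 counts in every library left 22 of the genes, without GCN4, ARG1, ARG5,6 and ARG8. Of the named genes, GCN4, ARG5,6, HIS4, LYS20, ARO3, ARO4 and SER1 crossed 0 against 25°C with some 1 library left out, and GCN4, LYS12, LYS20, ARO3, SER1, PCL5 and GDH3 against 30°C. Depth limits the first 25°C library most, where 14 of 36 genes had under 10 counts.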
